A study of Homo sapiens with 12 samples.

Results

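Histone lysine demethylases are the enzymes that remove methyl groups from lysines of the histone tails, and 10 of them were followed here: KDM3A, KDM3B, JMJD1C, KDM1A, KDM2A, KDM4A, KDM4B, KDM4C, KDM5B and KDM6B. They were taken by gene symbol from a table of 65975 genes, and all 10 were found. The study lowered KDM3A in rhabdomyosarcoma (RMS) cells with an shRNA and sequenced RNA of 12 libraries, 3 in each of 4 groups, and the question asked here was whether any other lysine demethylase changed at the level of RNA when KDM3A was low. RD is a fusion-negative RMS line (FN-RMS) and Rh30 a fusion-positive RMS line (FP-RMS), which carries a PAX3-FOXO1 fusion. RD Scramble and Rh30 Scramble cells carried a non-targeting Scrambled shRNA, and RD KDM3A-sh2 and Rh30 KDM3A-sh2 cells carried 1 shRNA against KDM3A. In all 4 groups the shRNA was delivered by lentivirus and the cells were selected with puromycin, so that the controls share both. RD was grown in DMEM and Rh30 in RPMI, so line and medium cannot be told apart. With 1 targeting shRNA, effects of KDM3A loss and other effects of that shRNA cannot be told apart either. Whether the 3 libraries of each group are separate cultures is not given in the sources used here, and p-values then measure only the spread between these libraries, which may be technical. The column headers of the 3 Rh30 Scramble libraries all end in 1, whereas those of the other groups run from 1 to 3. Their titles name them replicates 1 to 3, and whether they came from 1 sample cannot be told from this.

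Most enzymes of this group belong to the JmjC class, iron- and alpha-ketoglutarate-dependent dioxygenases that hydroxylate the methyl group, and they need oxygen for it. KDM1A (also called LSD1) works by a different chemistry, oxidising the methyl-lysine with FAD. KDM3A, KDM3B and JMJD1C form the KDM3 family, and KDM3A and KDM3B act on the mono- and dimethyl marks of H3K9, which are associated with silent chromatin. Enzymes of other families act on trimethyl H3K9 (KDM4), on the H3K4 marks of active promoters and enhancers (KDM5, KDM1A), on H3K36 (KDM2) or on the Polycomb mark of H3K27 (KDM6).

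Expression was measured as FPKM, a count of fragments divided by exon length and by the total mapped in that library, which allows levels of different genes to be compared per length. Fold changes are differences of log2(FPKM + 1) between KDM3A-sh2 and Scramble, which understate the change of genes with low values, and a gene was called where the limma test gave an adjusted p under 0.05 over all genes tested. The summed FPKM of a library ran from 1198300 to 1379197, and 17473 to 17983 genes reached 1 FPKM. FPKM do not hold the number of reads. A relative depth read from the spacing of very low values was between 0.862 and 1.20 of the median library, and it was lower with KDM3A-sh2 in both lines (0.862 to 0.998 against 1.05 to 1.20 in RD, 0.942 to 0.995 against 1.00 to 1.02 in Rh30). Its part in the results was not tested. All 6 muscle-lineage markers listed for RMS were present in every library at 45.3 FPKM or more, and all 5 markers of FP-RMS were at 10.6 FPKM or more in Rh30, whereas 3 of them were under 1 FPKM in RD. Of 6 markers of other cell types, 5 stayed under 1 FPKM in RD and 4 did in Rh30. Their summed level was 15.6 to 17.6 FPKM in RD Scramble, 22.7 to 25.0 in RD KDM3A-sh2, 5.62 to 6.32 in Rh30 Scramble and 5.78 to 8.63 in Rh30 KDM3A-sh2. CD68 made up most of it in RD and EPCAM in Rh30, while PTPRC, a marker of white blood cells, stayed at or below 0.0933 FPKM and KRT5 was listed at 0 in all 6 Rh30 libraries.

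Between KDM3A-sh2 and Scramble, 5 of the 10 demethylases differed in both lines, and in the same direction. KDM3A, KDM3B and KDM1A were lower, KDM2A and KDM4C were higher, and JMJD1C, KDM4A, KDM4B, KDM5B and KDM6B were called in neither line. In RD, 2 of 10 members were higher, where 21.6% of all genes tested were, and 3 of 10 were lower, where 19.5% were. In Rh30 the same counts, 2 higher and 3 lower, stand beside 15.3% and 13.2% of all genes tested. Calls in the same direction in both lines were made for 5 of the 10 members and for 13.4% of the 15970 genes tested in both. KDM3A is the target of the shRNA and its drop was set by the design. Without it, 4 of 9 members were called in the same direction in both lines, 2 higher and 2 lower in each line, and 6 of 9 had groups without overlap in RD and 4 of 9 in Rh30. The 3 KDM3A-sh2 and the 3 Scramble libraries did not overlap for 7 of 10 members in RD and for 5 of 10 in Rh30, against 53.4% and 45.8% of all genes, so the share of members without overlap was near that of all genes in Rh30. The median log2 fold change of the 10 members was 0.02 in RD and 0.08 in Rh30, and that of all genes tested 0.0067 and 0.03. The members were chosen with earlier results of these data known, so these comparisons with all genes are not independent.

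**Figure D1:**
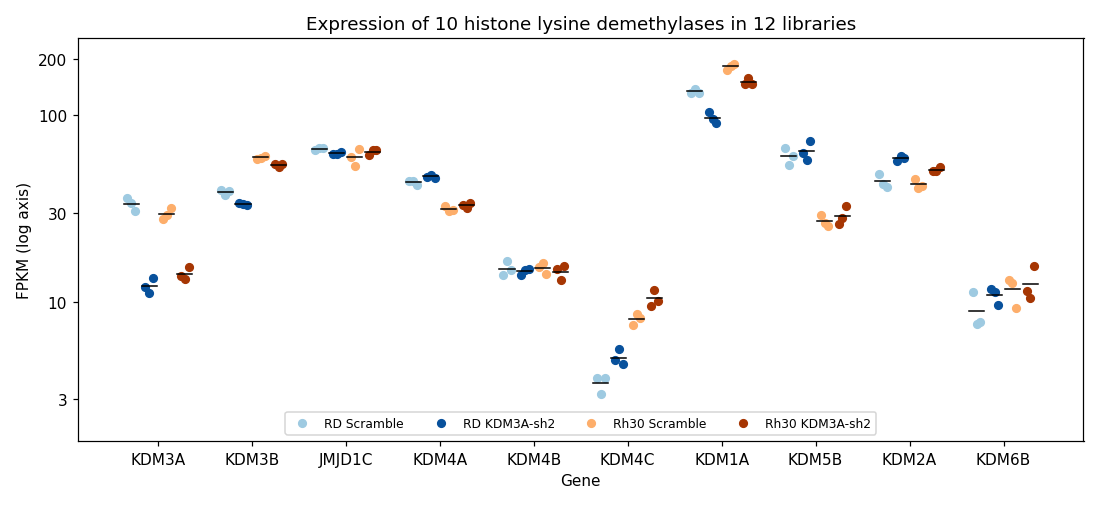
FPKM of the 10 demethylases (log axis) in each of the 12 libraries, 1 point a library and a black line at the mean of each group of 3. The KDM3A points of the KDM3A-sh2 groups lie at 11.2 to 15.4 FPKM, below all Scramble points, and KDM1A is the highest gene in each group.

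KDM3A, the target (2:86440647-86492716 on the plus strand of GRCh38), checks the labels. Its level was 35.8, 33.9 and 30.9 FPKM in RD Scramble and 12.0, 11.2 and 13.4 FPKM in RD KDM3A-sh2. Rh30 had 27.8, 29.2 and 32.0 FPKM with Scramble and 13.7, 13.2 and 15.4 FPKM with KDM3A-sh2. Every KDM3A-sh2 library was thus below every Scramble library of its line, and KDM3A RNA was still present in each of them. The log2 fold change was -1.39 in RD (SE 0.08, adjusted p = 5e-05), or 0.381 of the control, and -1.02 in Rh30 (SE 0.08, adjusted p = 0.000348), or 0.493 of the control. These ratios are of FPKM + 1 and slightly understate the drop in FPKM itself. The drop was thus smaller in Rh30, by 0.37 on the log2 scale (SE 0.12, 95% interval 0.11 to 0.63, adjusted p = 0.0388 for the interaction of shRNA and line in limma). KDM3A was the only member whose change differed between the lines by this test, where 14.4% of the 18517 genes tested had a higher and 13.4% a lower change in Rh30. This call was kept in 8 of 20 alternative analyses, and the adjusted p reached 0.087 in the others. Of the 12 libraries, it was kept only without Rh30 Scramble replicate 3, Rh30 KDM3A-sh2 replicate 2, RD Scramble replicate 3 or RD KDM3A-sh2 replicate 3, and lost without each of the others. In bulk RNA, less RNA per cell and fewer cells with the RNA cannot be told apart, which holds for every gene here.

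KDM3B (5:138352596-138437028, plus strand), the closest relative of KDM3A with the same substrate, was also lower. KDM3B RNA was at 39.9, 37.5 and 39.3 FPKM in RD Scramble and at 33.9, 33.6 and 33.2 FPKM in RD KDM3A-sh2, and at 58.5, 59.2 and 60.7 FPKM in Rh30 Scramble and 54.8, 52.6 and 54.8 FPKM in Rh30 KDM3A-sh2. The groups did not overlap in either line, although the shift was small beside that of KDM3A. On the log2 scale it changed by -0.21 in RD (SE 0.04, adjusted p = 0.00831) and -0.14 in Rh30 (SE 0.04, adjusted p = 0.0412), with a difference between lines of 0.07 (95% interval -0.04 to 0.18). The call in RD was kept in all 15 alternatives, whereas that in Rh30 was kept in 7 of 15 and was lost when any 1 of the 6 libraries was left out.

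JMJD1C (10:63167221-63521850, minus strand), the third KDM3 protein, whose demethylase activity is debated, was not called in either line. It was at 65.3, 66.6 and 66.8 FPKM in RD Scramble and 62.4, 61.8 and 63.7 FPKM in RD KDM3A-sh2, groups that did not overlap although the log2 fold change of -0.08 missed the threshold (95% interval -0.16 to 0.0032, adjusted p = 0.113 in limma). In Rh30 it was at 59.7, 53.5 and 65.6 FPKM with Scramble and 61.0, 64.9 and 65.1 FPKM with KDM3A-sh2, overlapping ranges with a log2 fold change of 0.10 (95% interval -0.08 to 0.28, adjusted p = 0.38).

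Neither relative was thus called higher where KDM3A was low. The 3 genes of the family summed to 138.6 ± 2.13 FPKM (SD, n = 3) in RD Scramble and 108.4 ± 1.81 in RD KDM3A-sh2, and to 148.7 ± 8.58 in Rh30 Scramble and 131.8 ± 3.03 in Rh30 KDM3A-sh2. KDM3A made up 24.2% ± 1.47 of that sum in RD Scramble and 11.2% ± 0.821 in RD KDM3A-sh2, and 19.9% ± 0.801 and 10.7% ± 0.647 in Rh30. The RNA of KDM3B and JMJD1C together was 105.1 ± 0.997 FPKM in RD Scramble and 96.2 ± 0.73 in RD KDM3A-sh2, and 119.1 ± 6.88 and 117.7 ± 2.02 in Rh30. In each library these relatives were therefore more abundant than KDM3A, also with Scramble.

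**Figure D2:**
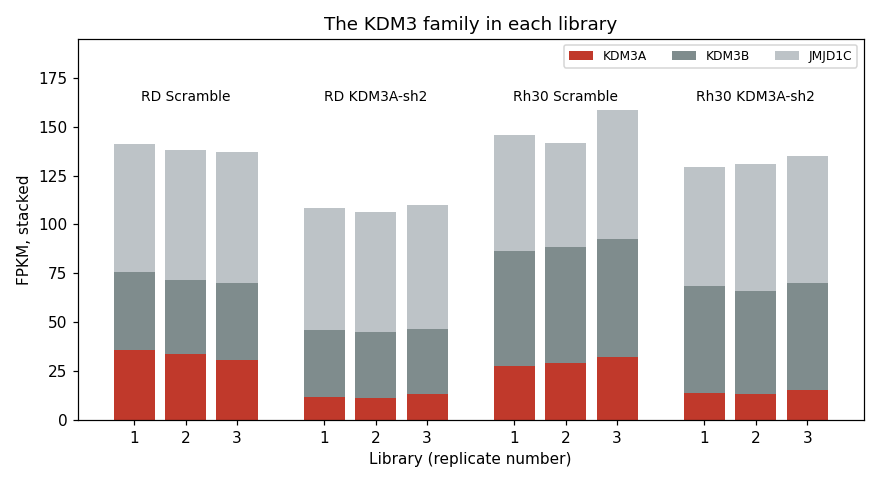
Stacked FPKM of KDM3A, KDM3B and JMJD1C in each of the 12 libraries (x axis, replicate number within each group). KDM3A (red) goes from 24.2% to 11.2% of the stack in RD and from 19.9% to 10.7% in Rh30, and the stacks of KDM3A-sh2 are lower than those of Scramble in both lines.

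For each gene the transcript with the longest 3' UTR was searched for 1 word of 7 bases, TGAAGCA. Earlier results of these data had shown this word to be common in the 3' UTRs of genes lower with KDM3A-sh2. It was therefore chosen with the results known. The sequence of KDM3A-sh2 is not given in the sources used here. The windows below, 29 bases of GENCODE 29 transcripts (GRCh38, 5′ to 3′ on the strand of the gene, the word in capitals, only that strand searched), show the 2 KDM3A sites and the 3' UTR sites of the members. In the coding sequence of these transcripts the word is in 8 of the 10 members, at 9 sites in all: KDM3A has 2, and KDM3B (exon 9, 5:138393202-138393230), JMJD1C, KDM1A, KDM2A, KDM4B, KDM4C and KDM6B have 1 each, among them genes that were lower, higher and not called. These transcripts need not hold the full coding sequence of a gene, and others were not searched. The KDM3A windows are coding sequence of exon 5 (2:86455144-86455172) and exon 12 (2:86474831-86474859) of KDM3A, and the KDM3B window lies in its last exon, exon 24 of KDM3B (5:138435716-138435744), where the word starts at base 27 of a 3' UTR of 1327 bases.
KDM3A exon 5: agctttgattgTGAAGCAtttagatgaaa
KDM3A exon 12: aagtatgacaaTGAAGCAattggcttgtg
KDM3B 3' UTR: aagctcctctgTGAAGCAggtctttcact
KDM5B 3' UTR: cctagtgactaTGAAGCAgcagtgtgatg

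Among the 10 members the word was found in the 3' UTR of these 2, KDM3B and KDM5B, taking for each gene the transcript with the longest 3' UTR. KDM5B has it near the end of a long 3' UTR, at base 4124 of 4763 (1:202725509-202725537, minus strand). Over 12609 genes with a 3' UTR of at least 50 bases, 16.75% hold the word, and the share grows with length, being 10.9% for genes with a 3' UTR about as long as that of KDM3B and 40.6% for those like KDM5B. Of these 2 members, KDM3B was called lower in both lines and KDM5B in neither, and KDM1A, which was lower in both, has no such word in its 3' UTR of 325 bases. The part of this word in the changes was not tested.

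KDM1A (1:23019443-23083689, plus strand), which removes mono- and dimethyl marks of H3K4 as the catalytic subunit of the CoREST repressor complex, showed the largest drop after KDM3A. It was at 132.3, 139.1 and 131.7 FPKM in RD Scramble and at 103.9, 95.8 and 90.8 FPKM in RD KDM3A-sh2. Rh30 had 175.9, 184.6 and 187.5 FPKM with Scramble and 147.1, 157.8 and 147.5 FPKM with KDM3A-sh2. No library of one group reached the other in either line. In RD this was a log2 fold change of -0.47 (SE 0.06, adjusted p = 0.000733), or 0.722 of the control, and -0.28 in Rh30 (SE 0.04, adjusted p = 0.00514), or 0.826 of the control, both ratios of FPKM + 1. Both calls held in all 15 alternatives. The drop in Rh30 was smaller by 0.20 (95% interval 0.04 to 0.36), which missed the threshold over all genes (adjusted p = 0.0677). In FPKM, KDM1A, the most abundant member in every library, fell by 37.6 in RD and fell by 31.9 in Rh30, and KDM3A fell by 21.4 and fell by 15.5.

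KDM2A (11:67119269-67258087, plus strand), an H3K36 demethylase that binds unmethylated CpG islands, was higher. Its levels of 48.7, 43.0 and 41.4 FPKM in RD Scramble compare with 56.9, 60.6 and 58.9 FPKM in RD KDM3A-sh2. In Rh30 they were 45.4, 40.9 and 41.8 FPKM with Scramble and 50.1, 50.2 and 53.1 FPKM with KDM3A-sh2. In both lines the lowest KDM3A-sh2 library was above the highest Scramble library. This was a log2 fold change of 0.40 in RD (SE 0.07, adjusted p = 0.00317) and 0.25 in Rh30 (SE 0.05, adjusted p = 0.0146), calls that held in all 15 alternatives, and the lines did not differ beyond error (difference -0.15, 95% interval -0.34 to 0.05).

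KDM4C (9:6720863-7175648, plus strand), which removes the trimethyl mark of H3K9, was the least abundant member by group mean and was also higher. It was at 3.89, 3.20 and 3.89 FPKM in RD Scramble and at 4.89, 5.59 and 4.62 FPKM in RD KDM3A-sh2, and at 7.54, 8.60 and 8.22 FPKM in Rh30 Scramble and 9.55, 11.6 and 10.2 FPKM in Rh30 KDM3A-sh2. The groups did not overlap in either line, although the gap between them was under 1 FPKM in both. The log2 fold change was 0.37 in RD (SE 0.11, adjusted p = 0.0316) and 0.32 in Rh30 (SE 0.09, adjusted p = 0.0361). These calls were near the threshold. They were kept in 6 of 14 alternatives in RD and 8 of 15 in Rh30, and in 1 of the 6 that left out a library in each line, the one without RD KDM3A-sh2 replicate 3 and the one without Rh30 KDM3A-sh2 replicate 1.

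The other KDM4 genes did not pass the test. KDM4A (1:43650158-43705515, plus strand), which acts on trimethyl H3K9 and H3K36, was at 44.2, 44.7 and 42.3 FPKM in RD Scramble and 47.0, 48.0 and 46.0 FPKM in RD KDM3A-sh2. These groups did not overlap, with a log2 fold change of 0.10 (95% interval 0.0027 to 0.20, adjusted p = 0.094 in limma). In Rh30 KDM4A was between 30.6 and 32.8 FPKM with Scramble and between 31.9 and 33.9 FPKM with KDM3A-sh2, a log2 fold change of 0.06 (95% interval -0.05 to 0.18, adjusted p = 0.374). KDM4B (19:4969113-5153595, plus strand), a related enzyme, overlapped between groups in both lines, lying between 13.1 and 16.5 FPKM in all 12 libraries. Its log2 fold change was -0.05 in RD (95% interval -0.22 to 0.13) and -0.07 in Rh30 (95% interval -0.27 to 0.13). Summed, KDM4A, KDM4B and KDM4C were at 62.5 ± 1.70 FPKM (SD, n = 3) in RD Scramble and 66.6 ± 1.57 in RD KDM3A-sh2, and at 54.9 ± 1.24 and 58.0 ± 1.59 in Rh30.

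KDM5B (1:202724495-202809470, minus strand), which removes the trimethyl mark of H3K4, ran from 54.2 to 66.9 FPKM (median 60.7) in RD Scramble and from 57.7 to 73.0 (median 62.5) with KDM3A-sh2. Rh30 values ran from 25.5 to 29.3 FPKM (median 26.4) and from 26.2 to 32.7 (median 28.3). These ranges overlapped, and the log2 fold changes of 0.08 in RD (95% interval -0.16 to 0.33, adjusted p = 0.556) and 0.09 in Rh30 (95% interval -0.12 to 0.31, adjusted p = 0.483) missed the threshold in limma. KDM6B (17:7839904-7854796, plus strand), which acts on H3K27, was the noisiest member, with 11.3, 7.65 and 7.85 FPKM in RD Scramble, 11.7, 11.3 and 9.59 in RD KDM3A-sh2, 13.0, 12.7 and 9.29 in Rh30 Scramble and 11.4, 10.5 and 15.6 in Rh30 KDM3A-sh2. A single library of each Scramble group and 1 of Rh30 KDM3A-sh2 stood away from its partners. The log2 fold change was 0.27 in RD (95% interval -0.08 to 0.63, adjusted p = 0.193) and 0.09 in Rh30 (95% interval -0.33 to 0.50, adjusted p = 0.743), the widest intervals of the 10 members. In RD its call depends on 1 library, since without RD Scramble replicate 1 the log2 fold change was 0.44 (adjusted p = 0.0213).

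**Figure D3:**
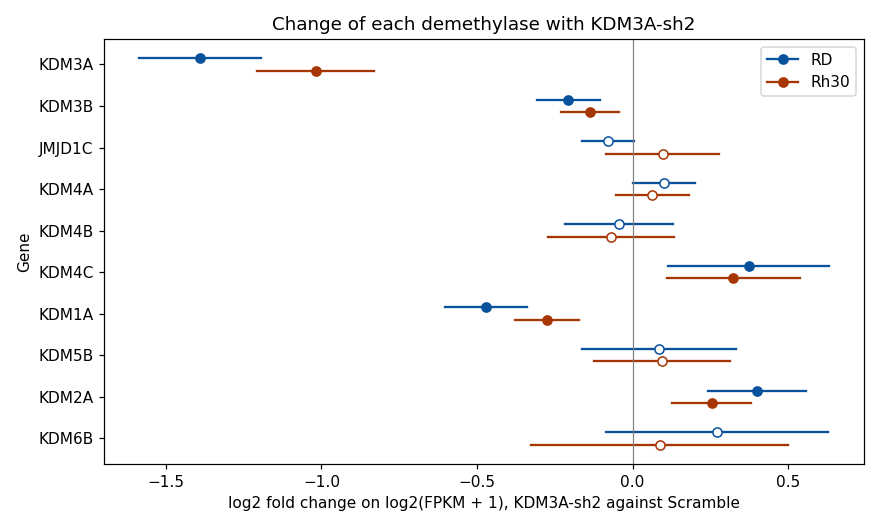
Log2 fold change, KDM3A-sh2 against Scramble, of each member in RD (blue) and Rh30 (brown), with 95% intervals from limma and filled points for genes called. The 5 genes with filled points in RD (KDM3A, KDM3B, KDM1A, KDM2A, KDM4C) are those with filled points in Rh30.

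An exact permutation test of the 3 against 3 libraries cannot give a two-sided p below 0.1. It gave 0.1 for each of the members without overlap, 7 in RD and 5 in Rh30, and 0.2 to 0.8 for the others. The 10 members summed to 449.4 ± 11.7 FPKM (SD, n = 3) in RD Scramble and 405.8 ± 4.72 in RD KDM3A-sh2, and to 467.8 ± 7.27 and 433.2 ± 10.9 in Rh30. KDM3A was 7.45% of that sum in RD Scramble, 3.00% in RD KDM3A-sh2, 6.34% in Rh30 Scramble and 3.26% in Rh30 KDM3A-sh2.

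By mean level, KDM1A was first and KDM4C last in all 4 groups, although the ranges of KDM6B and KDM4C overlapped in Rh30 KDM3A-sh2. In RD Scramble the order was KDM1A, JMJD1C, KDM5B, KDM2A, KDM4A, KDM3B, KDM3A, KDM4B, KDM6B and KDM4C, where the ranges of JMJD1C and KDM5B overlapped, as did those of KDM2A and KDM4A. In Rh30 Scramble it was KDM1A, JMJD1C, KDM3B, KDM2A, KDM4A, KDM3A, KDM5B, KDM4B, KDM6B and KDM4C, with overlap between JMJD1C and KDM3B and between the neighbours among KDM4A, KDM3A and KDM5B. With KDM3A-sh2, KDM3A moved from rank 7 to rank 8 in RD and from rank 6 to rank 8 in Rh30. It then overlapped KDM6B in RD and both KDM4B and KDM6B in Rh30.

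The lines themselves differed in 5 of the 10 members. In Scramble cells KDM3B (log2 difference 0.60, SE 0.04), KDM1A (0.44, SE 0.04) and KDM4C (0.97, SE 0.10) were higher in Rh30 than in RD, and KDM4A (-0.46, SE 0.05) and KDM5B (-1.13, SE 0.09) were lower. Their adjusted p-values in limma ran from 1.5e-05 for KDM3B to 0.000113 for KDM4A. These 3 higher and 2 lower members stand beside 35.0% and 39.6% of the 18357 genes tested. In either direction 74.5% of all genes were called. Over the alternatives the count of members ran from 4 (filter of 10 FPKM, beside 81.5% of all genes) to 8 (without Rh30 Scramble replicate 3, beside 72.1%). With 10 genes, whether the members differ less often than genes in general cannot be told. KDM3A itself was not called, at 33.5 ± 2.50 FPKM (SD, n = 3) in RD and 29.7 ± 2.14 in Rh30 (log2 difference -0.17, 95% interval -0.35 to 0.01, adjusted p = 0.0784).

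To place the members among their kin, 22 other genes of demethylases and JmjC-domain proteins were examined, leaving out those on the Y chromosome. In RD, 4 of 20 tested were higher and 3 lower, and in Rh30 3 of 21 were higher and 1 lower, with median log2 fold changes of 0.07 and 0.02. These shares are close to or below those of all genes. In both lines PHF2 was lower and JARID2 and JMJD8 were higher. In RD alone KDM1B was higher, from 9.58 to 13.5 FPKM (0.46, SE 0.06, adjusted p = 0.00111 in limma), with -0.01 in Rh30. KDM4D was also called higher in RD alone (0.26, adjusted p = 0.0477 in limma), but its log2 fold change in Rh30 was 0.38 (adjusted p = 0.0981). Its groups did not overlap in either line, and the difference between lines was 0.13 (adjusted p = 0.551). KDM2B (-0.36, adjusted p = 0.00381) and JMJD7 were called lower in RD alone. RIOX2 was higher in Rh30 alone (0.30, adjusted p = 0.00227). PHF2, a JmjC protein that binds methylated H3K4 through its PHD finger, was at 18.5, 20.5 and 19.5 FPKM in RD Scramble and 9.47, 10.3 and 10.3 in RD KDM3A-sh2, and at 29.8, 32.4 and 28.7 FPKM in Rh30 Scramble and 23.0, 22.9 and 23.0 in Rh30 KDM3A-sh2. It fell in both lines, and less in Rh30, with log2 fold changes of -0.89 (SE 0.06, adjusted p = 0.000104) and -0.38 (SE 0.06, adjusted p = 0.00382), a difference of 0.51 (SE 0.08, adjusted p = 0.000905).

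JARID2, which is catalytically inactive and accompanies the Polycomb complex PRC2, had log2 fold changes of 0.23 in RD (SE 0.06, adjusted p = 0.0275) and 0.21 in Rh30 (SE 0.05, adjusted p = 0.0265). JMJD8, a JmjC protein of the endoplasmic reticulum, had 0.34 in both (SE 0.09 and 0.06, adjusted p = 0.0252 and 0.0088). The second largest change among the genes called in RD was that of JMJD7, at -0.75 (SE 0.16, adjusted p = 0.0098), from 5.82 ± 0.604 to 3.09 ± 0.788 FPKM (SD, n = 3), whereas in Rh30 it was -0.14 (adjusted p = 0.597). JMJD7 overlaps a readthrough transcript with its neighbour, so its value is uncertain. The call of JARID2 was lost in RD when any 1 library was left out (adjusted p = 0.0540 to 0.0790) and in Rh30 with 5 of the 6, and that of JMJD8 in RD without RD KDM3A-sh2 replicate 1 (adjusted p = 0.0577) or replicate 3 (adjusted p = 0.0747).

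KDM1A works within the CoREST complex, in which RCOR proteins join it to the deacetylases HDAC1 and HDAC2, and 11 genes of that complex and its companions were examined beside it. In RD 6 of 11 were lower and 0 higher, and in Rh30 4 were lower and 2 higher. Of all genes tested, 19.5% were lower and 21.6% higher in RD, and 13.2% and 15.3% in Rh30. The median log2 fold change of the 11 was -0.28 in RD and -0.13 in Rh30, beside 0.0067 and 0.03 over all genes. This list was chosen with earlier results of these data known, so its comparison with all genes is not independent. HDAC2, RCOR2 and PHF21A were lower in both lines. HDAC2 was at 379.9, 359.9 and 341.3 FPKM in RD Scramble and 217.1, 215.6 and 223.8 in RD KDM3A-sh2, and at 533.7, 538.1 and 556.0 FPKM in Rh30 Scramble and 358.4, 363.1 and 344.3 in Rh30 KDM3A-sh2. The groups lay far apart in both lines, with log2 fold changes of -0.72 (SE 0.04, adjusted p = 5.9e-05) and -0.61 (SE 0.03, adjusted p = 0.000125).

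RCOR2, a scaffold that binds KDM1A, was at 9.66 ± 0.332 FPKM (SD, n = 3) in RD Scramble and 4.37 ± 0.205 in RD KDM3A-sh2, and at 19.7 ± 0.384 and 14.6 ± 0.721 in Rh30. Its log2 fold changes were -0.99 (SE 0.07, adjusted p = 0.000112) and -0.41 (SE 0.06, adjusted p = 0.00303), with a difference between lines of 0.58 (SE 0.08, adjusted p = 0.000308). PHF21A, the reader of unmethylated H3K4 in the complex, changed by -0.37 (SE 0.07, adjusted p = 0.00765) and -0.27 (SE 0.06, adjusted p = 0.0216). Its call in Rh30 was lost without Scramble replicate 2 or 3, or without KDM3A-sh2 replicate 1 or 3 (adjusted p = 0.0509 to 0.0627).

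GSE1 and HMG20B went opposite ways in the 2 lines. GSE1, a companion of the complex, was at 30.5 ± 1.08 FPKM in RD Scramble and 20.6 ± 1.29 in RD KDM3A-sh2, but at 15.5 ± 1.23 and 18.8 ± 0.447 in Rh30 (SD, n = 3). Its log2 fold changes were -0.55 (adjusted p = 0.00058) and 0.26 (adjusted p = 0.0308), a difference of 0.81 (SE 0.09, adjusted p = 9.2e-05). HMG20B, an HMG-box subunit, had log2 fold changes of -0.23 (adjusted p = 0.0181) and 0.47 (adjusted p = 0.0115), a difference of 0.71 (SE 0.12, adjusted p = 0.00128). Both differences held in all 20 alternatives. The rise of GSE1 in Rh30 was kept in 7 of 15 alternatives and in 1 of the 6 that left out a library, and the drop of HMG20B in RD was lost without Scramble replicate 3 or KDM3A-sh2 replicate 1 (adjusted p = 0.0529 and 0.0531).

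**Figure D4:**
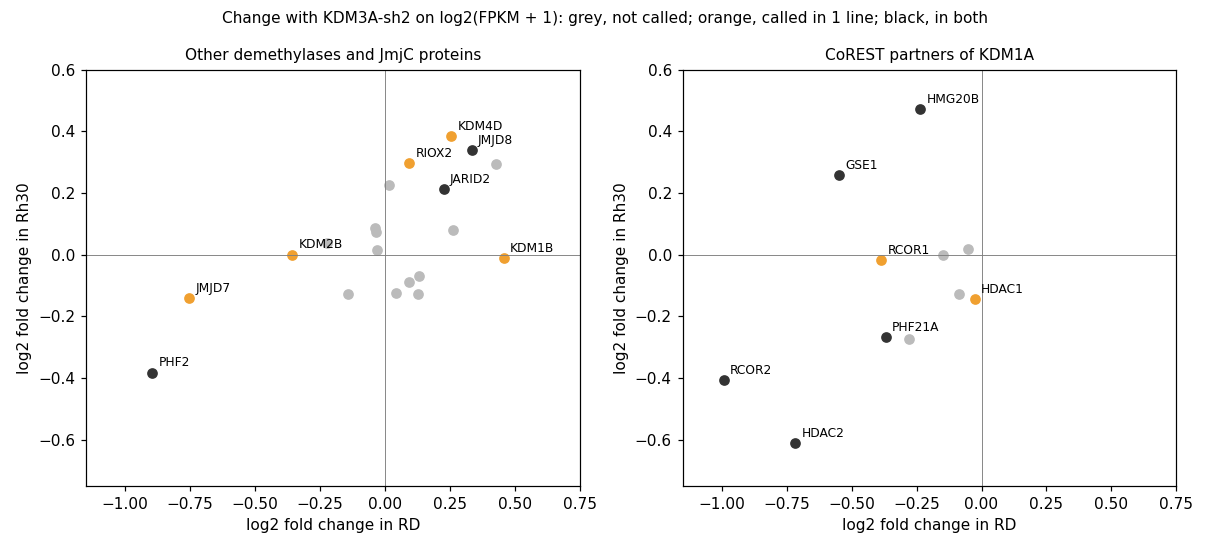
Log2 fold change in RD (x axis) and Rh30 (y axis) of the other demethylases and JmjC proteins (left) and the CoREST partners of KDM1A (right), 1 point a gene. Black points were called in both lines, orange in 1 and grey in none; HDAC2, RCOR2, PHF21A and PHF2 lie at the lower left, and GSE1 and HMG20B at the upper left.

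Among the genes of these lists, the word shown above for KDM3B was found again in 3' UTRs of PHF2, HDAC2 and PHF21A, which were lower in both lines, and of KDM2B, GSE1, RIOX2 and HIF1AN. The first 3 are shown because they are called in the same direction in both lines, each with the word in capitals. The positions are 9:93678677-93678705 (plus strand, exon 22 of PHF2), 6:113940860-113940888 (minus strand, exon 14 of HDAC2) and 11:45933030-45933058 (minus strand, exon 18 of PHF21A), all in GRCh38.
PHF2 3' UTR: gatgtatttccTGAAGCAtatttttcata
HDAC2 3' UTR: ttttctaattaTGAAGCAaaatttctttt
PHF21A 3' UTR: aagatcttgagTGAAGCAgcacgcgaccc

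Of the 9 genes with the word among the members and both lists, 6 were lower and 0 higher in RD, beside 6 lower and 6 higher of 32 without it. In Rh30 4 of the 9 were lower and 2 higher, beside 4 and 5 of 33. Over all genes with a 3' UTR, 30.37% of the 2068 tested with the word and 20.87% of the 10336 without it were lower in RD, and 28.18% of 2005 and 13.85% of 9873 were in Rh30. The word was chosen because it was common in the 3' UTRs of genes lower in these same data. An excess of lower genes among its holders was therefore set by that choice, and neither these shares nor these counts are independent support. Genes with long 3' UTRs also hold the word more often, and these shares were not matched on length. KDM1A, RCOR2 and HMG20B do not hold the word in the 3' UTR used here.

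Of the antisense transcripts of the members, JMJD1C-AS1 was close to the filter of 1 FPKM and KDM4A-AS1 was above it. KDM4A-AS1 had a log2 fold change of -0.42 in RD (95% interval -0.78 to -0.07, adjusted p = 0.0596), with 4.57 ± 0.895 FPKM in Scramble and 3.12 ± 0.397 with KDM3A-sh2 (SD, n = 3), and -0.23 in Rh30 (adjusted p = 0.247). In RD it passed the threshold without RD Scramble replicate 1 (-0.57, adjusted p = 0.0174). JMJD1C-AS1 was at 0.935 ± 0.0807 and 1.19 ± 0.343 FPKM in RD, a log2 difference of 0.17 (adjusted p = 0.456). In Rh30 it averaged below the filter of 1 FPKM and was not tested. Its level there was 0.427 ± 0.132 FPKM with Scramble and 0.961 ± 0.0906 with KDM3A-sh2 (SD, n = 3). These Rh30 groups did not overlap, but the values are close to the floor. The strand setting used for counting is not given in the sources used here, so reads of a gene and its antisense partner may not be separated.

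As a description, the genes whose log2(FPKM + 1) followed that of KDM3A most closely over the 12 libraries, among 11016 genes averaging 10 FPKM or more, were MOCS2 (Pearson r = 0.982), IDI1 (0.981), HDDC2 (0.981), FAM104A (0.981) and SAP130 (0.978). The 12 points are not independent, as the 3 of a group share shRNA and line. MOCS2, which acts in molybdenum cofactor synthesis, had group means of 56.3 FPKM in RD Scramble, 18.9 in RD KDM3A-sh2, 56.4 in Rh30 Scramble and 22.4 in Rh30 KDM3A-sh2. IDI1, an isomerase of the isoprenoid pathway, had 76.8, 49.8, 76.9 and 51.9 FPKM in the same order. No member was among these 5. Of the members, KDM2A ran most clearly against KDM3A (r = -0.86), KDM1A was at 0.57, KDM3B at 0.28 and JMJD1C at 0.06. These r values pool both lines, so a difference between the lines counts in them as well. In Scramble the log2 difference between lines was 0.60 for KDM3B, 0.44 for KDM1A and -0.05 for KDM2A.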

How the data were processed

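RNA of 12 libraries was measured by single-end sequencing of a directional mRNA preparation. Per the labels and the Methods, the authors used GSNAP for alignment to GRCh38, SAMtools, and Cufflinks for FPKM, in 1 deposited table of unlogged FPKM. The annotation release and strand setting are not given in the sources used here, and no read depth is held in FPKM, so the number of libraries limits the precision. The table holds 66095 entries for 65975 gene identifiers. Repeated identifiers were reduced to the entry of higher mean (120 entries left out), and a placeholder of 999999999 in 17 genes, none a member, was treated as missing.

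Libraries were grouped by the labels. Values were tested as log2(FPKM + 1) with limma 3.58.1 in R 4.3.3 (lmFit, eBayes with a trend) over genes averaging 1 FPKM or more across the libraries compared, two-sided, with Benjamini-Hochberg adjustment over all genes and a threshold of 0.05. Each line was fitted alone, and the interaction over all 12 libraries. The steps were tested on simulated data. The authors' ANOVA on unlogged FPKM was run as an alternative. 3' UTRs and positions came from GENCODE 29 (GRCh38), with Python 3.11.15, pandas 2.3.3, NumPy 2.4.6, SciPy 1.17.1 and matplotlib 3.10.9. The members and lists were chosen with earlier results of these data known. Named were all 10 members; of the other demethylases and the CoREST list, genes called in both lines and the 2 largest changes called in each line; the antisense genes tested; and the 5 genes most correlated with KDM3A. KDM2B, RIOX2 and HIF1AN were named after their values were seen, for the word in their 3' UTRs. KDM1B and KDM4D were also named after their values were seen, as demethylases called in 1 line.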

Additional observations from a re-analysis of the deposited data

Results flagged for a closer look

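The change with KDM3A-sh2 differed between RD and Rh30 by the interaction test in limma for several of the genes named above, given as the log2 change in Rh30 minus that in RD. It was 0.37 for KDM3A (SE 0.12, adjusted p = 0.0388), whose drop was larger in RD. It was 0.51 for PHF2 and 0.58 for RCOR2, which were also lower in both lines and more so in RD. It was 0.81 for GSE1 and 0.71 for HMG20B, which were lower in RD and higher in Rh30. KDM2B, named after its values were seen, had 0.36 (adjusted p = 0.0289), lower in RD (-0.36) and at 0.00042 in Rh30, a call kept in 10 of 20 alternatives and lost without Rh30 Scramble replicate 1, Rh30 KDM3A-sh2 replicate 1 or 3, RD Scramble replicate 1, or RD KDM3A-sh2 replicate 2 or 3 (adjusted p = 0.0515 to 0.0676). KDM1B, also named after its values were seen, had -0.47 (SE 0.08, adjusted p = 0.00171), higher in RD (0.46) and at -0.01 in Rh30. Its call was not followed through the alternatives. Line, medium and the depth of KDM3A loss differ together here and cannot be told apart.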

How the results depend on the processing

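The members called numbered 5 in RD, 5 in Rh30, 1 for the difference between lines and 5 for Rh30 Scramble against RD Scramble. With a pseudocount of 0.1, no filter, a filter of 10 FPKM, rescaling to the same sum or by the median ratio, limma without a trend, ANOVA on unlogged FPKM and the spread of all 12 libraries, they stayed at 4 to 6 in RD, 4 to 5 in Rh30 and 4 to 7 between the lines. The difference of KDM3A was lost, leaving 0, with no filter, with the same sum and with ANOVA. Leaving out 1 library at a time gave 4 to 5 in RD, 3 to 4 in Rh30, 0 to 2 for the difference and 5 to 8 in Scramble, the 8 without Rh30 Scramble replicate 3. The log2 fold change of KDM3A stayed between -1.46 and -1.34 in RD and between -1.08 and -0.96 in Rh30 and was called throughout. Fewer libraries or another set of genes tested are part of several alternatives, and otherwise the cause was not tested.

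Same-numbered libraries did not deviate together (correlations of -0.074 to -0.0045), so no pairing by number was seen. Deviations from the mean of so few libraries cannot show how the libraries were prepared. With a replicate block, 4 members were called in RD (KDM4C lost), 4 in Rh30 (KDM3B lost), 0 for the difference and 6 in Scramble, and all genes called fell to 6259 in RD and 3421 in Rh30 from 7390 and 5066.

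Rescaling to the same sum moved the lower share of all calls for the difference from 48.3% to 59.3% and the median of all genes between the lines from -0.04 to -0.14. Reversals were confined to values that had missed the threshold. KDM5B's difference became -0.049 with the same sum, -0.013 with the median ratio and -1.83 FPKM with ANOVA, which also gave -0.082 FPKM for KDM3B and 0.94 FPKM for KDM4C, and KDM4B between the lines became -0.086 with the same sum. Without 1 library, log2 values ran from -0.097 to 0.015 (KDM4B, RD), -0.0079 to 0.16 (KDM5B, RD), -0.12 to 0.00016 (KDM4B, Rh30), -0.071 to 0.20 (KDM6B, Rh30) and -0.27 to 0.037 (JMJD7, Rh30). Differences ran from -0.085 to 0.045 (KDM4B), -0.12 to 0.024 (KDM4C) and -0.075 to 0.10 (KDM5B), and Scramble values from -0.10 to 0.015 (KDM2A) and -0.035 to 0.077 (KDM4B).

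The same alternatives were applied to the other lists after seeing the data. Calls among the other demethylases numbered 4 to 8 in RD (7 as reported, 4 with a filter of 10 FPKM or without RD KDM3A-sh2 replicate 3) and 3 to 5 in Rh30 (4), and among CoREST partners 4 to 7 in RD (6) and 3 to 7 in Rh30 (6, and 3 without Rh30 KDM3A-sh2 replicate 1 or 3). In RD no CoREST partner was called higher in any of them. The differences of PHF2 and RCOR2 were lost with ANOVA alone (adjusted p = 0.239 and 0.789).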
